A study of Mus musculus with 18 samples.

Results

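The genotype difference common to 3 culture conditions was described here: 9 libraries of macrophages labelled p110g-/- against 9 wild-type (WT) libraries, with the stimulus as a term of the model. All 18 libraries of the series entered, and the genes were the 15627 of 16474 in the table with normalised values of 10 or more in 3 or more libraries. The mice were 8 weeks old and are all given as strain C57BL/6. Their marrow cells became macrophages over 6 days with M-CSF at 50 ng/ml, the factor that drives this differentiation. For the last step M-CSF was lowered to 20 ng/ml and given alone for 24 h, together with interferon gamma and lipopolysaccharide (100 ng/ml) for 24 h (IFNg/LPS), or together with interleukin 4 (20 ng/ml) for 48 h (IL-4). Every group, WT included, therefore received M-CSF. The 2 genotypes and 3 stimuli make 6 groups, with libraries 1, 2 and 3 in each. The labels give neither the origin of the deleted allele, nor the substrain, nor whether WT and p110g-/- mice were littermates, nor whether a number marks 1 animal, so p-values measure the spread between these libraries. Differences carried by the p110g-/- colony and effects of losing p110gamma cannot be told apart.

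Phosphoinositide 3-kinase gamma is the lipid kinase that leukocytes switch on downstream of G protein-coupled receptors such as chemokine and complement receptors. Its catalytic subunit, p110gamma, is encoded by Pik3cg and is joined by a regulatory subunit from Pik3r5 or Pik3r6; the lipid it makes recruits Akt and other proteins to the membrane. In macrophages the enzyme is known for its part in migration and in the balance between inflammatory and immune suppressive gene programmes.

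Recovered depth was 40.1 to 69.6 M reads (M, 1e6) per library, with 128 to 307 genes at 0. A count of 0 allows an expected count of 3 reads, which in these libraries equals a value between 2.15 and 4.74. Over all tested genes the median log2 difference was -0.0005, so levels are relative to an unmoved middle. Summed macrophage identity genes, 17 in the table, were 1250000 to 1410000 in WT M-CSF and 1290000 to 1360000 in p110g-/- M-CSF. The sums were 859000 to 925000 in WT and 729000 to 867000 in p110g-/- in IFNg/LPS. In IL-4 they were 751000 to 822000 in WT and 699000 to 798000 in p110g-/-. The genotypes' sums overlapped in every stimulus, and none of the 17 genes was at 0 throughout a group.

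Pik3cg checks the labels. In M-CSF it stood at 5308, 5330.3 and 4994 in WT libraries 1 to 3 and at 1888, 2046 and 1966 in p110g-/- libraries 1 to 3. The IL-4 values were 3068, 2953 and 3280.5 in WT and 956, 1083 and 965 in p110g-/-. In both stimuli the genotypes were apart. In IFNg/LPS the WT values were 3559.5, 2309 and 2604 and the p110g-/- values 3691, 1410.5 and 2037, so the library labelled p110g-/- IFNg/LPS 1 lay above every WT library of that stimulus. The same library held 2546 for H60a, the gene with the largest difference in the mean over the stimuli. That value was close to the 2576 and 2937 of its group and far from the WT range. H60a was picked from these same values, so it is no independent check of this library's label. Averaged over the stimuli, Pik3cg was 2.18-fold lower (log2 difference -1.12 ± 0.19 SE, limma adjusted p = 0.00087), with transcript remaining in all 9 p110g-/- libraries. The labels do not say which exons were removed, so remaining reads say nothing of the protein. The regulatory subunit genes did not pass the test: Pik3r5 differed by 0.12 ± 0.079 (adjusted p = 0.37) and Pik3r6 by 0.25 ± 0.11 (adjusted p = 0.18). Of the 9 class I kinase subunit genes, Pik3cg was the 1 gene called in the mean effect. Within single stimuli, 2 of the 9 were called in M-CSF, 2 in IL-4 and 0 in IFNg/LPS. Pik3cb read 3785, 4315 and 4082 in WT and 4822, 5010 and 4663 in p110g-/- in M-CSF. In IL-4 it read 3453, 3927 and 4248 against 3010, 2489 and 2449, the opposite direction, which a mean over stimuli cancels.

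In the mean effect 1296 genes (8.29% of those tested) passed a limma adjusted p of 0.05. Of these, 586 (3.75%) were higher and 710 (4.54%) lower in p110g-/- cells. Most differences were modest: the median size was 0.44 on the log2 scale, the quartiles were 0.25 and 0.86, and 701 genes lay below 0.5 while 253 exceeded 1. The smallest called differences named by rule were Ubac2 (0.10 ± 0.03), a membrane protein of the endoplasmic reticulum, and Gtf3c4 (0.10 ± 0.031), a subunit of an RNA polymerase III factor, on the higher side. On the lower side they were the lysosomal gene regulator Tfe3 (-0.10 ± 0.031) and the proteasome subunit Psmd13 (-0.11 ± 0.033). With the 3 stimuli averaged per genotype and library number, leaving 3 means against 3, 740 genes were called, 618 of them among the 1296.

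The same contrast within 1 stimulus called 365 genes in M-CSF (2.34%), 2303 in IFNg/LPS (14.7%) and 520 in IL-4 (3.33%). Of the 1296 genes, 148 were called in every stimulus, 167 in 2 of them and 583 in 1, of which 433 in IFNg/LPS, 90 in IL-4 and 60 in M-CSF. A further 1790 genes were called in at least 1 stimulus and not in the mean effect, 1608 of them in IFNg/LPS. For 28 genes the calls of different stimuli had opposite signs. The remaining 398 genes of the mean effect were called in no single stimulus and had the same sign in all 3; they are named shift genes below.

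**Figure D1:**
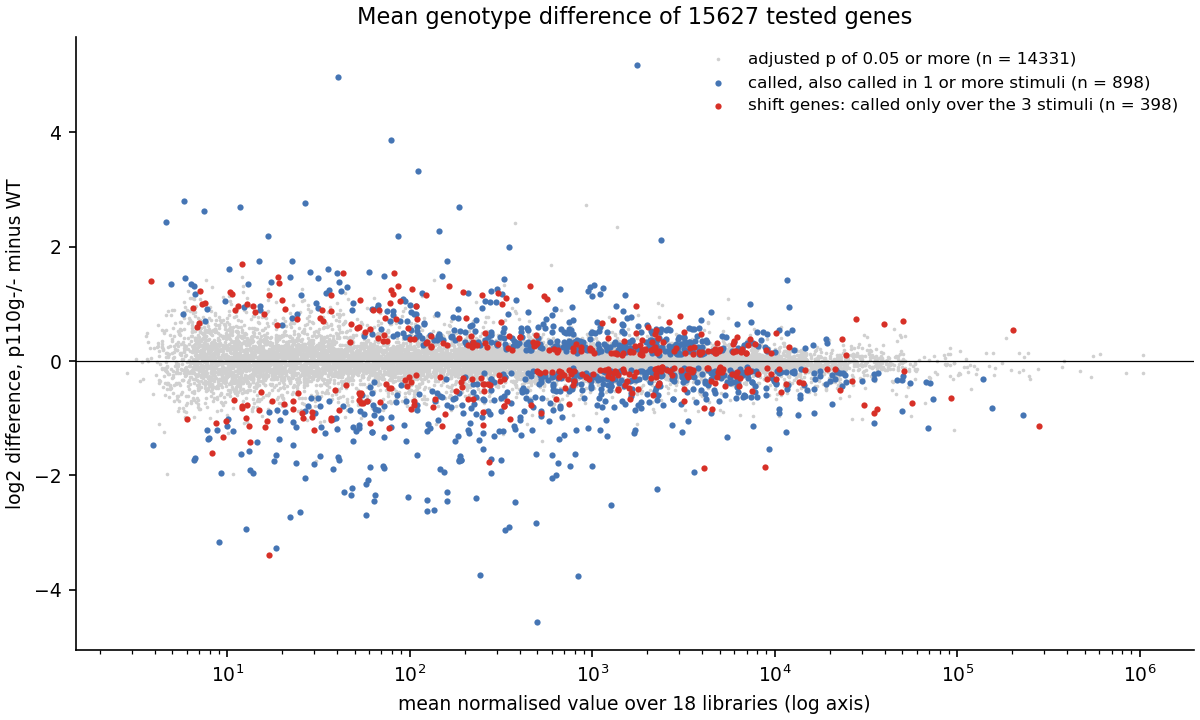
Each point is 1 of 15627 tested genes, with its mean normalised value over 18 libraries on a log horizontal axis and its log2 difference (p110g-/- minus WT) on the vertical axis. The 398 shift genes (red) lie across the range of levels, mostly close to 0, while the most extreme points belong to the 898 genes called in a single stimulus as well (blue).

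Among genes whose libraries were apart between genotypes under every stimulus (391 of the tested genes, 2.5%, and 384 of the called ones), the furthest in the mean effect were H60a upward and Cyp4f18 downward. H60a encodes a cell surface ligand of the activating receptor NKG2D. Its values in M-CSF were 63.0, 63.8 and 61.7 in WT and 3752, 3452 and 3214 in p110g-/-, in IFNg/LPS 145, 134 and 133 against 2546, 2576 and 2937, and in IL-4 78.0, 83.8 and 102 against 4317, 4091 and 3743. No p110g-/- library came near the WT range, and the mean difference was 36.4-fold (5.19 ± 0.17 log2, adjusted p = 7.8e-13). C57BL/6 mice are known as a strain without H60a transcript, which is background and not a measurement here.

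Cyp4f18, a hydroxylase that inactivates the leukocyte attractant leukotriene B4, was 23.8-fold lower (-4.57 ± 0.30, adjusted p = 1.2e-08). Its WT values ran from 203.7 to 1910.2 and its p110g-/- values from 14.3 to 50.2. Cysltr2, a receptor for cysteinyl leukotrienes, was lower (-3.74 ± 0.51), and the WT libraries of IFNg/LPS held the most of it, 1764, 1048 and 936 against 12.8, 7.6 and 15.6. The guanine nucleotide exchange factor gene Plekhg1 (-3.76 ± 0.33), the stress-induced secreted factor Gdf15 (-2.95 ± 0.29) and the calcium-dependent kinase gene Camk2b (-2.61 ± 0.31) were lower too. On the higher side stood the calcium sensor Hpca (3.86 ± 0.24), Hddc3 (2.69 ± 0.13), the calcium channel gene Cacna1a (2.13 ± 0.20) and Sorbs3 (2.00 ± 0.18), which encodes the focal adhesion protein vinexin.

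Antibody genes were also in this group: Igj, the joining chain, differed by 2.19 ± 0.34 and Igh-VJ558, a heavy chain variable gene, by 3.33 ± 0.51. Their p110g-/- values spread widely, from 36.1 to 381 for Igj. None of the 6 tested B cell markers was called, and the sum of the 8 in the table was 9820 to 11200 in WT M-CSF and 10700 to 11600 in p110g-/- M-CSF, 7080 to 8060 and 10700 to 11700 in IFNg/LPS, and 13200 to 14700 and 11500 to 14200 in IL-4; a part of B lineage cells in the antibody genes was not tested. In bulk RNA more cells of a type and more RNA per cell cannot be told apart. With 3 means against 3 Igh-VJ558 and Igj were no longer called (adjusted p = 0.051 and 0.053), and the other 14 of these 16 genes were.

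The 398 shift genes made up 2.55% of the tested genes, 191 higher (1.22%) and 207 lower (1.32%). These values chose them, so they are described and not tested further. Their median size was 0.38 on the log2 scale (quartiles 0.20 and 0.74), 244 lay below 0.5, and their median level of 755 was near the 715 of all tested genes. Pooling the stimuli narrowed the error: the median SE of a shift gene was 0.095 in the mean effect and 0.162 within 1 stimulus. The genotypes' libraries were apart in all 3 stimuli for 37 of them, in 2 for 219, in 1 for 130 and in none for 12. The boundary was not sharp. Cxxc5 (adjusted p = 0.0499) was just inside the mean effect and Ykt6 and Bmf (0.0501) just outside, and with an unadjusted p of at least 0.05 required in each stimulus 7 shift genes were left. With 3 means against 3, 59 of the 398 were called.

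**Figure D2:**
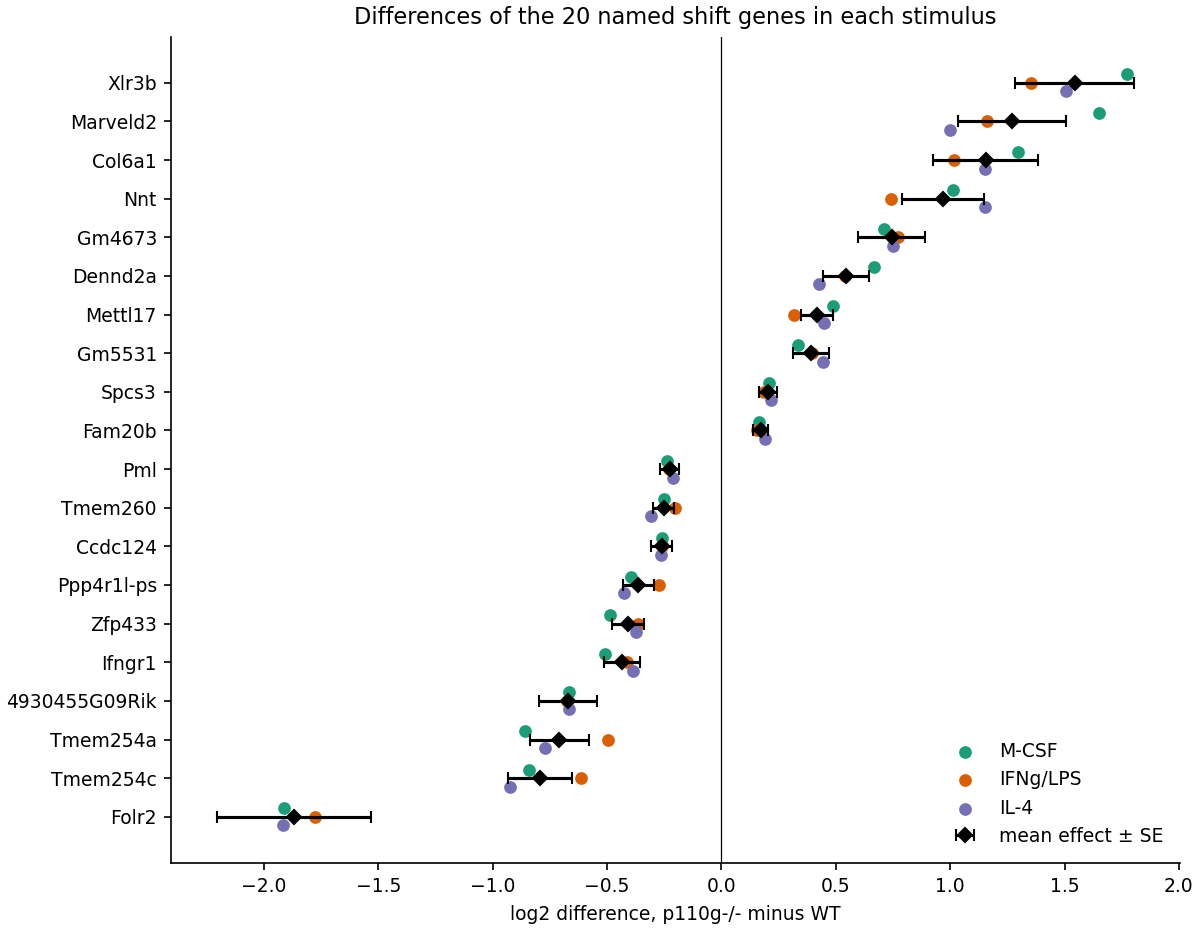
The 20 shift genes with the smallest adjusted p (10 per direction, mean value of at least 50) are listed by size of difference. The horizontal axis is the log2 difference of p110g-/- minus WT, black diamonds with bars are the mean effect ± SE and coloured dots the difference in each stimulus. All 3 dots of a gene lie on the same side of 0, which the rule required, and the mean differences run from -1.87 for Folr2 to 1.54 for Xlr3b, with Fam20b (0.17) nearest to 0.

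The named higher shift genes included several of basic cell machinery. Mettl17, which assists assembly of the mitochondrial ribosome, was 1.34-fold higher (0.42 ± 0.071, adjusted p = 0.00098), and its libraries were apart in every stimulus. Spcs3, a subunit of the signal peptidase that trims secreted proteins, read 5357, 5406 and 5425 in WT and 5878, 6724 and 6125 in p110g-/- in M-CSF, 2919, 2791 and 3215 against 3358, 3276 and 3522 in IFNg/LPS, and 9495, 10244 and 10169.6 against 10838, 12305 and 11601 in IL-4. The lowest p110g-/- library exceeded the highest WT library each time, for a difference of only 0.20 ± 0.038 (adjusted p = 0.0022). Fam20b, a kinase that primes sugar chains on proteoglycans, rose by 0.17 ± 0.031. Its libraries were 2911, 3000.2 and 2969 against 3201, 3450.1 and 3319 in M-CSF and 4311, 4410.2 and 4474 against 5082, 5008 and 4958 in IL-4, apart in both. In IFNg/LPS, at 5864, 5384 and 5368 against 5769.7, 6376 and 6389, p110g-/- library 1 fell inside the WT range.

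Dennd2a, an activator of Rab membrane traffic proteins, was 1.46-fold higher (0.55 ± 0.10, adjusted p = 0.0021). It stood at 2020.4, 2167 and 2088 in WT and 3299, 3523 and 3161 in p110g-/- in M-CSF, and at 1051, 1748 and 1423 against 1488, 2552 and 2127 in IFNg/LPS. The genotypes were apart in M-CSF and IL-4 and overlapped in IFNg/LPS, where library 1 was the lowest of either genotype. The junction protein gene Marveld2 (1.27 ± 0.24) and the collagen gene Col6a1 (1.16 ± 0.23) showed larger shifts at lower levels, with mean values of 103 and 123. The predicted genes Gm4673 (0.74) and Gm5531 (0.39) complete the higher group with Xlr3b and Nnt.

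Nnt and Xlr3b had wild-type libraries that differed by number. Nnt encodes the mitochondrial transhydrogenase that makes NADPH. Its values in M-CSF were 1206, 2766 and 1208 in WT and 2869, 3488 and 3307 in p110g-/-, in IFNg/LPS 438, 685 and 371 against 800.2, 799 and 820.5, and in IL-4 888, 1958 and 1090.4 against 2171, 3186 and 3015. WT library 2 was the highest WT library under each stimulus, yet below every p110g-/- library of it. The mean difference was 0.97 ± 0.18 (adjusted p = 0.002), and with 3 means against 3 the call was lost (adjusted p = 0.1). The substrain C57BL/6J is known to carry a deletion in Nnt, again as background; the labels name no substrain.

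Xlr3b, one of a family of near-identical X-linked genes whose reads could be split by the counting, read 40.7, 63.8 and 24.9 in WT and 172, 89.6 and 177 in p110g-/- in M-CSF. In IFNg/LPS it read 31.0, 70.0 and 28.4 against 121, 57.9 and 154, and in IL-4 29.7, 56.4 and 26.9 against 129.9, 64.9 and 129.7. Library 2 was the highest of WT and the lowest of p110g-/- in all 3 stimuli, and in IFNg/LPS these 2 libraries crossed. The difference of 1.54 ± 0.26 (adjusted p = 0.00095) was not called with 3 means against 3 (adjusted p = 0.09).

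**Figure D3:**
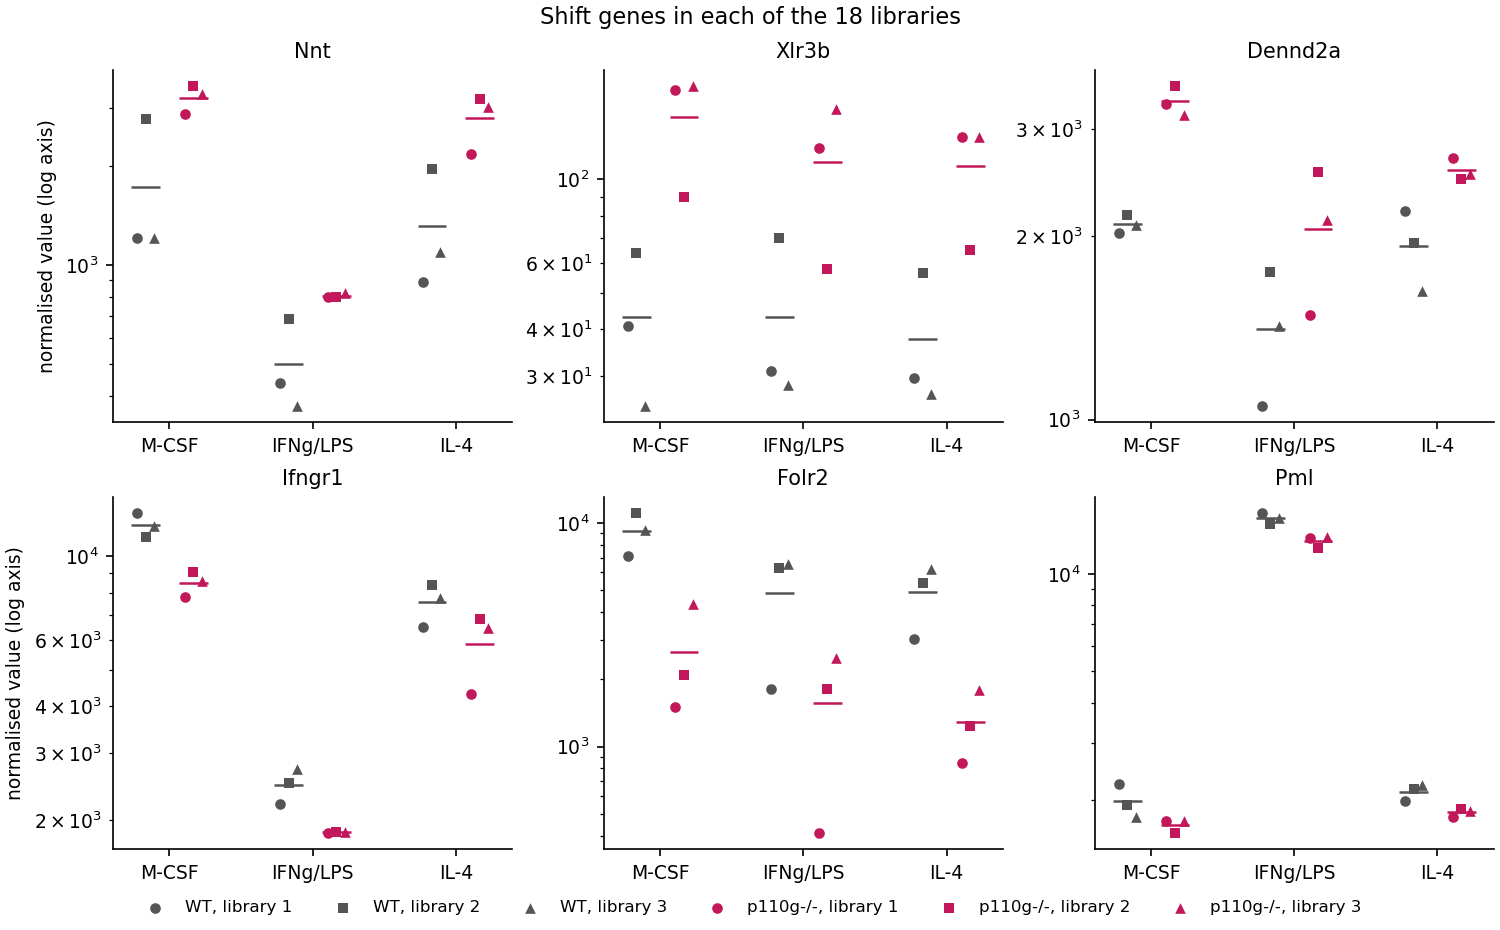
Normalised values (log axis) of 6 shift genes in every library, by stimulus, with WT in grey, p110g-/- in magenta, the marker shape giving the library number and the bar the mean of 3 libraries. WT library 2 (grey square) is the highest WT point of Nnt and Xlr3b in each stimulus, and every p110g-/- point of Pml lies below the WT points of its stimulus.

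Lower shift genes included the interferon gamma receptor. Ifngr1, the ligand-binding chain, was 13003, 11228 and 11995 in WT and 7800.5, 9074 and 8602 in p110g-/- in M-CSF, 2207, 2501 and 2724 against 1841, 1859 and 1852 in IFNg/LPS, and 6482, 8371 and 7760.4 against 4319, 6811 and 6430.4 in IL-4. Genotypes were apart in M-CSF and IFNg/LPS and overlapped in IL-4, where WT library 1 lay below p110g-/- library 2. The mean difference was 1.35-fold (-0.44 ± 0.078, adjusted p = 0.0016), and the call held with 3 means against 3 (adjusted p = 0.039). Pml, an interferon-inducible scaffold of nuclear bodies, was lower by a near equal amount in each stimulus: -0.24, -0.23 and -0.21 in M-CSF, IFNg/LPS and IL-4. Its WT libraries (2245, 1928 and 1782 in M-CSF, 15404, 14239 and 14882 in IFNg/LPS, 1990.1, 2161 and 2231 in IL-4) were all above the p110g-/- libraries (1722, 1581 and 1723, 12915, 12016 and 13016 and 1781, 1879.9 and 1849).

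Folr2, the folate receptor of tissue macrophages, had the largest shift of the 20 named genes, 3.65-fold lower (-1.87 ± 0.34, adjusted p = 0.0017). It read 7114, 11052 and 9334 in WT and 1512, 2098 and 4340.2 in p110g-/- in M-CSF, 1817, 6257 and 6530.3 against 410.5, 1803 and 2497 in IFNg/LPS, and 3033, 5392 and 6245 against 849, 1243 and 1792 in IL-4. Library 1 was the lowest of its group in all 6 groups, WT library 1 overlapped the p110g-/- libraries in IFNg/LPS, and with 3 means against 3 the adjusted p was 0.088. The other lower shift genes named were the zinc finger gene Zfp433 (-0.41), the ribosome-associated Ccdc124 (-0.26), the glycosyltransferase gene Tmem260 (-0.25), the near-identical pair Tmem254a (-0.71) and Tmem254c (-0.79), the pseudogene Ppp4r1l-ps (-0.36) and 4930455G09Rik (-0.67). All 20 stayed called when any 1 library was left out, and 8 of the 20 with 3 means against 3. The 20 were chosen for small adjusted p in these same libraries, which favours both counts, so neither is independent support.

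Genes called over 2 stimuli were followed into the stimulus that the call had not used. Of 768 genes called over IFNg/LPS and IL-4, 667 (86.8%) had the same sign in M-CSF, where 61.6% of all tested genes did. Of 1080 called over M-CSF and IL-4, 817 (75.6%) kept their sign in IFNg/LPS against 56.5% of all genes, and of 773 called over M-CSF and IFNg/LPS, 620 (80.2%) did in IL-4 against 56.3%. Libraries of 1 genotype and number may share an animal across stimuli, so the unused libraries are not known to be independent.

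MHC class II molecules show peptides from the lysosome to helper T cells. H2-Aa, H2-Ab1 and H2-Eb1 encode the chains, Cd74 the invariant chain that fills the groove, H2-DMa and H2-DMb1 the loader, and Ciita the factor that switches the set on at promoters carrying X and Y boxes. Of 10 class II genes listed (8 H2 genes, Cd74 and Ciita) 7 had promoters in the RefSeq table (GRCm38.p6, 250 bases before the start to 50 after it), and 3 are shown because their shifts are described next. Capitals mark a short X box core, TAGNAAC, and the Y box, TGATTGG, searched on both strands. The core occurs in 3 of the 7 genes and 11.4% of all 32851 promoters, and the Y box in 6 of the 7 and 7.82%. The core followed within 40 bases by the Y box on the same strand occurs in 3 of the 7 (H2-Eb1, H2-DMb1 and H2-Ob) and in 26 of all promoters (0.0791%), a spacing chosen after these sequences were seen. A match is a description of letters, not a bound site.
H2-Aa, minus strand, chr17:34287774-34288073: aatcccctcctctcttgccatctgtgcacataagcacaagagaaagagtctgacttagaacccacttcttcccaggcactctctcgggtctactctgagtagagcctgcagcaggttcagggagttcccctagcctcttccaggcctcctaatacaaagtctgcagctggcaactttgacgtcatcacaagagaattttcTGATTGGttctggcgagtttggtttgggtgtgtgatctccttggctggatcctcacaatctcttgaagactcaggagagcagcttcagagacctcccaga
H2-Eb1, plus strand, chr17:34305617-34305916: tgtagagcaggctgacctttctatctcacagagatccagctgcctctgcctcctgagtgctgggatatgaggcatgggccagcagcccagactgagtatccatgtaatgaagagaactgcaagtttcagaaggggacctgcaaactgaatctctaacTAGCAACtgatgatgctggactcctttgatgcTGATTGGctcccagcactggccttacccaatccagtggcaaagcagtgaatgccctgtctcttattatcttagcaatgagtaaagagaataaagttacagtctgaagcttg
H2-DMb1, plus strand, chr17:34152941-34153240: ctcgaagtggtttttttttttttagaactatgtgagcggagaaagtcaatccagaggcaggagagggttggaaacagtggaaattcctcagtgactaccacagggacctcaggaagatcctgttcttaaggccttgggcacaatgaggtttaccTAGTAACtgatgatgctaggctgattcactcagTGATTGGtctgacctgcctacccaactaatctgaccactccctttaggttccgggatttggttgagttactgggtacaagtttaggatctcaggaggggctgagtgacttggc

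In the mean effect, 7 of the 15 tested class II and co-stimulation genes were higher in p110g-/- cells and none lower (background 3.75% and 4.54%), with a median of 0.42, and 6 of the 7 were shift genes. H2-Aa, whose printed promoter holds the Y box and no X box core match, read 31054, 13647 and 17934 in WT and 48669, 27569 and 20456 in p110g-/- in M-CSF. In IFNg/LPS it read 25216, 23116 and 24523 against 32301, 46535 and 31469.9, and in IL-4 88763, 56840.2 and 53335 against 130871, 122784 and 108845. Genotypes were apart under IFNg/LPS and IL-4 and overlapped in M-CSF, where WT library 1 exceeded p110g-/- libraries 2 and 3. The difference was 1.62-fold (0.70 ± 0.17, adjusted p = 0.017).

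The partner genes differed by similar amounts, H2-Ab1 by 0.64 ± 0.16, H2-Eb1 by 0.74 ± 0.19, Cd74 by 0.55 ± 0.14, H2-DMa by 0.42 ± 0.12 and H2-DMb1 by 0.38 ± 0.11. H2-Eb1 and H2-DMb1, the genes with both boxes printed above, stood at opposite ends of that range among the chains and the loader. Ciita was 1249, 830.0 and 889.8 in WT and 1867, 1455 and 975 in p110g-/- in M-CSF, 1073, 1134 and 1009 against 1533, 3008 and 1826 in IFNg/LPS, and 7453, 6702 and 6463 against 10802, 12436 and 10497 in IL-4. It overlapped in M-CSF alone and differed by 0.71 ± 0.14 (adjusted p = 0.0023). H2-DMb2, at 0.31 ± 0.11, was not called (adjusted p = 0.088), nor were the co-stimulators Cd80 (-0.17), Cd86 (-0.27) and Cd40 (0.00).

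These class II calls depend on the libraries used. The count of 7 was 5 without the M-CSF libraries, 3 without IFNg/LPS and 0 without IL-4, and 4 without WT IL-4 replicate 2 or 3. With 3 means against 3 it was 1, Ciita (adjusted p = 0.036), and H2-Aa had an adjusted p of 0.11.

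Dendritic cells, which marrow cultures can hold, carry much class II. Of their 13 markers tested, 10 had a positive difference, with a median of 0.26. Called were Ly75 (1.14) and Cd209a (1.16) higher and Bst2 (-0.50), which interferon induces too, lower. The summed level of the 13, most of it Bst2 except in p110g-/- IL-4, was 4160 to 8510 in WT M-CSF and 3050 to 5270 in p110g-/- M-CSF, 67500 to 77400 and 64700 to 88000 in IFNg/LPS, and 4620 to 5440 and 4110 to 4710 in IL-4; Cd209a was at 0 throughout both IFNg/LPS groups. Summed without Bst2, a choice made after its values were seen, the other 12 were higher in p110g-/- libraries with no overlap in any stimulus: 722 to 901 in WT and 1030 to 1760 in p110g-/- in M-CSF, 3630 to 8470 and 11900 to 27800 in IFNg/LPS, and 1800 to 1960 and 2380 to 2530 in IL-4. Single genes made up much of the sum without Bst2, Batf3 in IL-4 and Ccr7 in IFNg/LPS. Batf3, not called in the mean effect, read 1248, 1454 and 1441 in WT and 1596, 1803 and 1852.5 in p110g-/- in IL-4. Ccr7, the receptor that guides dendritic cells to lymph nodes, read 3926, 1033 and 979 in WT and 19983, 9112 and 7189.7 in p110g-/- in IFNg/LPS, and the actin bundler Fscn1 596, 269.8 and 355 against 2685, 537 and 635. Averaged over the stimuli neither was called (adjusted p = 0.19 and 0.11), nor were the defining markers Flt3 (0.57) and Zbtb46 (0.29), with mean values of 26.4 and 38.7. Other dendritic cell markers went the opposite way in IFNg/LPS. Group means there were 767 in WT and 658 in p110g-/- for Xcr1 and 72.8 and 53.5 for Clec9a. They were 30.1 and 23.5 for Itgae and 131 and 114 for Dpp4. The part of such cells in the class II differences was not tested.

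**Figure D4:**
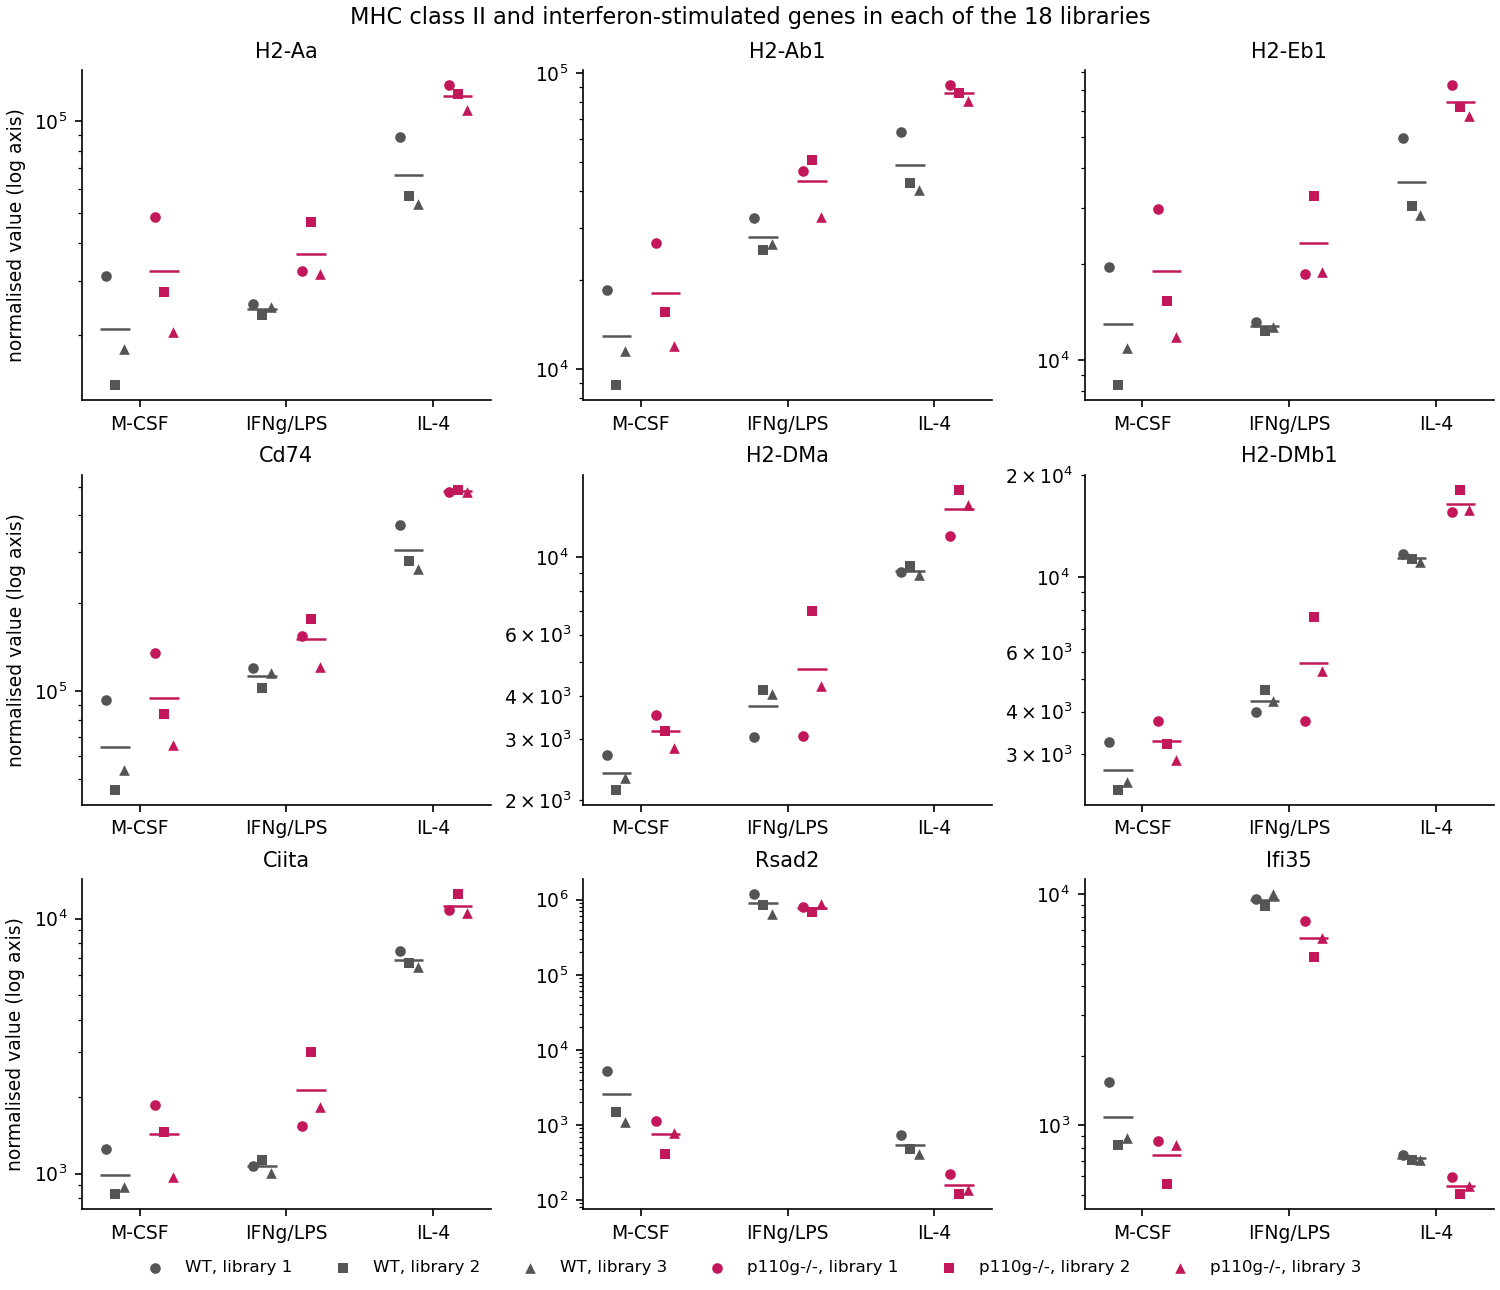
Normalised values (log axis) of 7 MHC class II genes and of the interferon-stimulated Rsad2 and Ifi35 in every library, with WT in grey, p110g-/- in magenta, marker shapes for the library number and bars for the mean of 3 libraries. In IL-4 all 3 p110g-/- points of each class II gene lie above the WT points and those of Rsad2 and Ifi35 below; in M-CSF the points of H2-Aa, Ciita, Rsad2 and Ifi35 overlap.

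Genes that type I interferon induces were called in the lower direction only. Of 30 tested, none was called higher and 4 were called lower (background 4.54%): Rsad2, Cmpk2, Ifi35 and Bst2, all shift genes. All 30 had a negative difference and their median was -0.49, against -0.0005 over all genes. The count of 4 was 1 to 5 with 1 library left out, and 1 or 2 without WT IL-4 replicate 1, 2 or 3, p110g-/- M-CSF replicate 2, p110g-/- IFNg/LPS replicate 2 or p110g-/- IL-4 replicate 1, 2 or 3. It was 0 without the IL-4 libraries, 1 without IFNg/LPS or with quantile scaling, 2 with no trend and no robust setting and 7 with the library number as a replicate block. Of the 18 fits with 1 library left out, Ifi35 was called in 18, Rsad2 in 13, Bst2 in 8 and Cmpk2 in 5. Ifi35 was 1546, 819.5 and 879 in WT and 851, 558 and 818 in p110g-/- in M-CSF, 9546, 8865 and 10003 against 7688, 5339 and 6452 in IFNg/LPS, and 742, 708 and 709 against 596, 502 and 543 in IL-4. It was apart in IFNg/LPS and IL-4, and differed by -0.49 ± 0.11 (adjusted p = 0.011). The antiviral enzyme Rsad2 read 5233, 1479 and 1097 in WT and 1114, 413 and 781 in p110g-/- in M-CSF, and 746, 472 and 416 against 222, 119 and 137 in IL-4. The genotypes overlapped in M-CSF, where WT library 1 was the highest, and in IFNg/LPS, where the difference was -0.15; the mean difference was -1.15 ± 0.31 (adjusted p = 0.03).

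Of 17 interferon gamma-induced GTPase genes, which attack the vacuoles of parasites, 3 were lower (background 4.54%) and none higher: Iigp1 (-1.09 ± 0.22) and the near-identical Tgtp1 (-0.91 ± 0.21) and Tgtp2 (-0.83 ± 0.20). With 3 means against 3, none of the 4 type I genes was called, and Iigp1 was (adjusted p = 0.031). Rsad2 and Cmpk2 are also 23 and 22 tested genes away from Pik3cg in the reference order, so for these 2 the pathway and the neighbourhood of the targeted gene cannot be told apart.

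Of 25 tested inflammatory cytokines and chemokines, 5 were lower (Ccl2, Ccl7, Ccl12, Cxcl9 and Il18; background 4.54%) and 1 higher (Lif; background 3.75%). The median of the list was -0.015, and Ccl2, Ccl7 and Ccl12 draw monocytes. Without the IFNg/LPS libraries 1 was called lower and none higher, with 3 means against 3 it was 3 and none, and with 1 library left out 4 to 6 and 0 to 2. Ccl2 read 76.1, 1217 and 207 in WT and 35.6, 59.0 and 77.0 in p110g-/- in M-CSF, 36018, 35689.6 and 31521 against 18104, 12677 and 17863 in IFNg/LPS, and 428, 2287 and 1683 against 241, 349.8 and 198 in IL-4. Its WT libraries ranged widely in M-CSF, with library 2 the highest and library 1 within the p110g-/- range, and the genotypes were apart in IFNg/LPS and IL-4. The difference was -1.86 ± 0.43 (adjusted p = 0.01), with an adjusted p of 0.089 with 3 means against 3. Ccl7 differed by -2.24 ± 0.39 and Ccl12 by -1.71 ± 0.29, the latter at or near the level of 3 reads outside IFNg/LPS, so that its size depends on the pseudocount. The cytokine Il18, which had 1013, 989.7 and 1023 in WT and 741, 472 and 647 in p110g-/- in IFNg/LPS, was lower (-0.51 ± 0.12, adjusted p = 0.012).

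Among immune suppressive and tissue repair factors 2 of 24 were higher and 4 lower (background 3.75% and 4.54%), and with 3 means against 3 none was higher and 2 were lower, with an adjusted p of 0.075 for Fn1 and 0.079 for Il10. The matrix protein gene Fn1 was 2.66-fold higher (1.41 ± 0.27) and Tgfb2 higher by 0.96 ± 0.24 at a mean value of 15.1. The regulatory cytokine Il10 (-2.04 ± 0.37), the interleukin 1 blocker Il1rn (-1.17 ± 0.21), the collagenase Mmp13 (-1.33 ± 0.15) and the matrix protein Spp1 (-0.88 ± 0.25) were lower. Il10 read 205, 85.6 and 63.9 in WT and 21.8, 9.8 and 36.1 in p110g-/- in M-CSF and 4677, 1705 and 1740.4 against 1557, 200.3 and 518 in IFNg/LPS. All p110g-/- libraries of it were below the WT libraries of their stimulus; in IL-4 it was low in both genotypes, at 21.4, 15.8 and 16.4 against 8.6, 2.9 and 4.6.

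Of 30 genes listed as G protein-coupled chemoattractant receptors, 8 were called (26.7%, background 8.29%), 2 higher and 6 lower. Whether each of them acts on this kinase was not tested. The 6 were 3 without WT IFNg/LPS replicate 2 or 3 or WT IL-4 replicate 2 or 3. The complement receptors were lower, C3ar1 (-0.39 ± 0.068, adjusted p = 0.0013) and C5ar1 (-0.64 ± 0.11, adjusted p = 0.0015). C3ar1 stood at 94614, 76753 and 81779 in WT and 67031, 61455 and 73930.4 in p110g-/- in M-CSF, 107188, 110306 and 108003 against 81008, 65161 and 76372 in IFNg/LPS, and 55840.3, 47235 and 44532 against 43124, 38215 and 39686 in IL-4. Every p110g-/- library was below every WT library of its stimulus. The chemokine receptors Ccr1 (-0.55) and Ccr3 (-1.65), the sphingolipid receptor S1pr1 (-0.51) and the nucleotide receptor P2ry6 (-0.18) were lower, and the lysophospholipid receptor Lpar6 (0.51 ± 0.062) and the adenosine receptor Adora2a (0.59 ± 0.15) higher. Among 25 tested G protein and regulator genes, of which 12% were called (background 8.29%), Gna12 (0.64) and the shift gene Gnaq (0.15) were higher and Rgs18 (-0.44) lower.

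Downstream of the lipid, 3 of 32 phosphatases and lipid readers were called (9.38%, near the background of 8.29%), Inpp5d (-0.21 ± 0.055), which removes a phosphate from the lipid product, Vav1 (-0.18 ± 0.054) and Mtmr14 (0.18 ± 0.051). In the list of 29 Akt, mTOR and FoxO genes, 1 was called higher and 1 lower (6.9%, below the background of 8.29%): the transcription factor Foxo1 was a shift gene at 0.24 ± 0.054 (adjusted p = 0.0086), and Sesn2, an inhibitor of mTOR signalling, stood at -0.34. With 1 library left out, the phosphatase and reader list had 0 or 1 higher and 1 to 3 lower, and the Akt list 1 or 2 higher and 0 to 3 lower. No member was called of 22 tested NF-kB genes or of 26 glycolysis and hypoxia genes, whose medians were 0.07 and 0.02.

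Complement and scavenger genes were lower in 7 of 28 cases and higher in none (background 4.54% and 3.75%). Besides the complement receptors these were the platelet factor gene Pf4 (-1.79 ± 0.13, adjusted p = 4.7e-08), the macrophage survival protein Cd5l (-0.95 ± 0.16), the clearance receptors Timd4 (-1.15 ± 0.22) and Stab1 (-0.84 ± 0.16), and C2 (-0.71 ± 0.13). Pf4 was 1772, 2094 and 1998 in WT and 319.6, 434 and 637 in p110g-/- in M-CSF, and the genotypes were apart in every stimulus. Of 17 macrophage identity genes 2 were lower (background 4.54%): Fcgr1, the high-affinity antibody receptor, was lower (-0.74 ± 0.13) as was the transcription factor Maf (-0.62 ± 0.14). The median of the 17 was -0.21, and 3 had a positive difference. Within IFNg/LPS alone 11 of the 17 were called in either direction, against 14.7% of all tested genes. The lipase gene Lpl was lower (-0.95 ± 0.15), and the transcription repressor Id2 higher by 0.94 ± 0.15.

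In a list of 11 NKG2D ligand and related genes 9 were called (background 8.29%), in both directions. Mill1 and Mill2 are on it as related genes and not as known NKG2D ligands. Besides H60a, the related H60b (1.46 ± 0.29) and H60c (1.61 ± 0.36) and Mill1 (0.70) were higher, at mean values of 31.6, 10.2 and 7.54. Raet1d (-2.35 ± 0.17), Raet1e (-2.22 ± 0.23), Raet1c (-1.15), Raet1a (-1.04) and Ulbp1 (-0.32) were lower, while Raet1b (0.42, adjusted p = 0.14) was not called. Raet1 genes are near-identical, the handling of shared reads is not given in the sources used here, and their values are uncertain for that reason.

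Markers of some other cell types were called as well. Of 7 tested mast cell and basophil markers 5 were lower (background 4.54%), among them the basophil protease Mcpt8 (-1.81 ± 0.28) and Prss34 (-1.17 ± 0.27); the summed 8 markers were 446 to 836 in WT IL-4 and 208 to 222 in p110g-/- IL-4, 346 to 491 and 155 to 332 in M-CSF, and overlapped in IFNg/LPS (687 to 1110 and 505 to 1190). Of 11 tested fibroblast and stromal markers 2 were higher (background 3.75%), Col1a2 by 1.31 ± 0.35 and Col3a1 by 1.24 ± 0.31; Col1a1 was not called (1.33 ± 0.44, adjusted p = 0.074). All 11 had a positive difference, with a median of 0.78. With 1 library left out the count was 1 to 6, and Col1a2 was called in 12 of the 18 fits. With 3 means against 3, none of the 11 was called. Col1a2 read 1144, 248 and 179.7 in WT and 1658, 806 and 886 in p110g-/- in M-CSF, so WT library 1 lay within the p110g-/- range. The 12 stromal markers summed to 921 to 4260 in WT and 2730 to 5910 in p110g-/- M-CSF. The sums were 814 to 905 and 879 to 969 in IFNg/LPS and 970 to 2110 and 1880 to 2750 in IL-4, so they overlapped in every stimulus. The shift gene Col6a1 is a gene that stromal cells express too. Of 4 tested erythroid and megakaryocyte markers 1 was lower (background 4.54%), and none had a positive difference. That 1 was Pf4, already counted above with the complement and scavenger genes. The sum of the 6 such markers in the table, Pf4 included, was lower in p110g-/- libraries with no overlap: 1960 to 2160 in WT and 483 to 719 in p110g-/- in M-CSF, 469 to 822 and 186 to 365 in IFNg/LPS, and 744 to 815 and 256 to 327 in IL-4. Pf4 alone averaged 1950 in WT and 463 in p110g-/- in M-CSF, 425 and 132 in IFNg/LPS, and 692 and 240 in IL-4. That sum was thus carried largely by Pf4 and is not a separate result for the other markers. No neutrophil (13), B cell (6), T and NK cell (6) or osteoclast (8) marker was called. The part of these cells in the results above was not tested.

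The share of called genes differed between chromosomes, which is described here without a test. With 14792 tested genes placed in the RefSeq order of GRCm38.p6, chromosomes 14 (16.5%), 8 (14.5%) and 12 (13.5%), which carries Pik3cg, had the largest called shares against 8.29% over all genes. The 25 tested genes on each side of Pik3cg held 9 called ones (18%), 3 higher and 6 lower, among them the deacetylase gene Hdac9 (-2.40 ± 0.28), the phosphatase gene Acp1 (-0.77), the sorting nexin Snx13 (-0.26), Id2, Rsad2 and Cmpk2. Runs of 25 genes with at least 10 called were picked after the values were seen, so they are rich in called genes by choice. All such runs together, overlapping ones included, held 3.58% of placed genes and 17.2% of the called. They also held 33.1% of those called with libraries apart in all 3 stimuli, and 11.1% of the shift genes. Of these runs, 14 that do not overlap were picked from the densest down. Fam20b starts such a run on chromosome 1, Lpl another and Cacna1a ends another on chromosome 8. The cause was not tested.

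**Figure D5:**
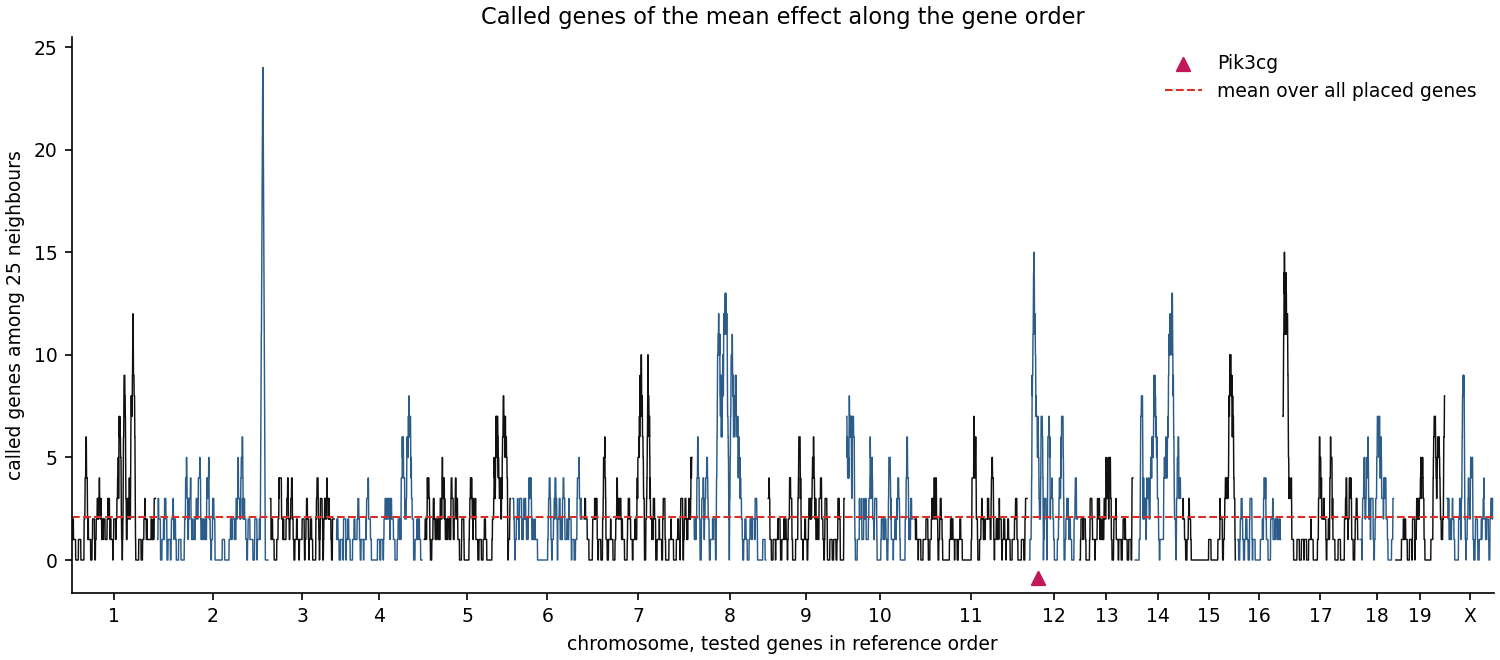
Tested genes stand in reference order along the horizontal axis, chromosome by chromosome in alternating colours, and the vertical axis counts called genes among 25 neighbours. The dashed line is the mean over all placed genes and the triangle marks Pik3cg. The highest peak, 24 of 25, is on chromosome 2, with lower peaks of 15 on chromosomes 12 and 17.

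The densest run, from Gm14440 to Zfp931 on chromosome 2, is a cluster of zinc finger genes, a family whose proteins bind DNA and often silence repeats. Of its 25 tested genes 24 were called, all lower, and the exception was Gm6182 (adjusted p = 0.091). The median difference was -1.76, the range -2.91 to -0.24. Etohi1, in this run, had the smallest adjusted p of all tested genes: it read 824, 886 and 840.0 in WT and 128, 129 and 116 in p110g-/- in M-CSF, 663, 668 and 758 against 102, 95.9 and 126 in IFNg/LPS, and 964, 1062 and 1064 against 124, 122 and 124 in IL-4. The p110g-/- libraries were all far below, 7.13-fold (-2.83 ± 0.067, adjusted p = 1e-14). Of 336 tested genes named Zfp, of which Zfp931 alone is in this run, 17 were higher and 6 lower (6.85%, below the background of 8.29%), with a median of 0.03.

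Promoters of 3 cluster members are printed to show how alike they are, since reads of near-identical copies could be shared. Capitals mark the 77-base run that all 3 have in common (RefSeq, GRCm38.p6, 250 bases before the start to 50 after it, minus strand).
Gm14325, chr2:177840287-177840586: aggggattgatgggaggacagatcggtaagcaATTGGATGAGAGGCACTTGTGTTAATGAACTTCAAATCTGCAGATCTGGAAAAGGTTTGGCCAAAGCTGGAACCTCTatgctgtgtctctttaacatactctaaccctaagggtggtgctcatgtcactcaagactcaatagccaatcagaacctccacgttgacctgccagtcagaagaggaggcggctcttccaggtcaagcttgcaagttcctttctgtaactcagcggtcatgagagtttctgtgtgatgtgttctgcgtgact
Gm14326, chr2:177957239-177957538: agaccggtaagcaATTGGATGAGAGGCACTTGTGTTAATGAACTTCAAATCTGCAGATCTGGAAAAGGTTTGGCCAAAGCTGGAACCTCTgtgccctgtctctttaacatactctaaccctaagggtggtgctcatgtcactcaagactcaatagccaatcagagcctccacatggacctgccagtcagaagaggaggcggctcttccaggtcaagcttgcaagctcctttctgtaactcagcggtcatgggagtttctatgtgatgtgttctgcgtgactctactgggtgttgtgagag
Zfp931, chr2:178078376-178078675: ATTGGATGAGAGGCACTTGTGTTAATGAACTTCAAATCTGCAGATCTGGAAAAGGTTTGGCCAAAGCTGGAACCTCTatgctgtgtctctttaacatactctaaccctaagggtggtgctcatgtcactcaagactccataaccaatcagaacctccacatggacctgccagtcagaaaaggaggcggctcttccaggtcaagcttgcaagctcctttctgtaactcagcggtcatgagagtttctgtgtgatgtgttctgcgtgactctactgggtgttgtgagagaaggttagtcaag
Aligned in pairs these windows were 96.4% to 97.8% identical. The differences were -2.91 ± 0.13 for Gm14325, -2.46 ± 0.088 for Gm14326 and -1.15 ± 0.11 for Zfp931, so members with near-identical starts differed in size of change and in the same direction. Gm14325 read 721, 708 and 733 in WT and 74.7, 86.3 and 72.2 in p110g-/- in M-CSF and Zfp931 139.8, 125 and 156 against 70.1, 88.5 and 81.7. The transcript bodies were not compared here, so how far these values share reads was not tested.

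A constant shift was tested for through the interaction of genotype and stimulus, in which 652 genes (4.17%) were called. Of the 1296 genes of the mean effect 91 were among them, so for these the mean summarises unequal differences. Stard4, a sterol carrier, differed by 1.01 in M-CSF, 2.29 in IFNg/LPS and 0.60 in IL-4. Gna12 differed by 0.90, 0.14 and 0.89 in the same order. No shift gene was called in the interaction, which the rule favours and which does not show that their differences are equal.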

How the data were processed

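RNA sequencing was read from 1 table of 18 libraries. The authors deposited a normalised signal, gene counts scaled by a library factor and given to 1 decimal, from which whole reads were recovered to within 0.1. CASAVA 1.8.2, Bowtie2, DESeq and build mm9 are named per the submitters' processing notes; the counting method, strand and treatment of shared reads are not given in the sources used here. The test was that of limma 3.58.1 in R 4.3.3 (trend and robust settings) on log2(value + 1), with stimulus and genotype as terms over 18 libraries (14 residual degrees of freedom). P-values are two-sided and were adjusted by the Benjamini-Hochberg method over 15627 genes at 0.05. Differences are p110g-/- minus WT on the log2(value + 1) scale, which understates changes of low genes. Single-stimulus and interaction tests used a fit of 6 group means (12 residual degrees of freedom). edgeR 4.0.16 and DESeq2 1.42.0 on recovered reads were alternatives. The script was tested on simulated data.

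The genes, the 43 gene lists and the tests were chosen with earlier results of these data known. Genes named were Pik3cg and its regulatory subunits, the 8 largest differences per direction with a mean of at least 50 and libraries apart in every stimulus, the 10 shift genes per direction with the smallest p and a mean of at least 50, up to 4 called members per list with the smallest p, and the 2 smallest called differences per direction. List members beyond these were named after their values were seen. Same-numbered libraries of the 2 genotypes correlated in their deviations above 0.1 in 7 of 9 pairs (0.053 to 0.546). For libraries of 1 genotype and number under different stimuli it was 14 of 18. The labels do not say what a number marks, and the number was not a term of the reported fit. With the number as a replicate block, 1568 genes were called and 261 of the 398 shift genes were shift genes again. Gene order and promoters came from RefSeq tables of GRCm38.p6, a build other than that of the values, so the order (94.7% of tested genes matched) served for neighbourhood only. The ± values are standard errors of the limma fit and measure the spread between libraries, with unequal genotype differences between stimuli included. Precision at low values is limited by the 3 libraries per group.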

Additional observations from a re-analysis of the deposited data

Results flagged for a closer look

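For 9 of the genes named, the genotype difference itself differed between stimuli (limma interaction test over 15627 genes, adjusted p below 0.05), so their mean over stimuli hides unequal sizes. The differences below are p110g-/- minus WT on the log2 scale in M-CSF, IFNg/LPS and IL-4. Cysltr2 (adjusted p = 3.9e-05) differed by -2.12, -6.58 and -2.52, largest in IFNg/LPS. H60a (6.2e-05) differed by 5.76, 4.28 and 5.52, smallest in IFNg/LPS. Stard4 (0.0012), like Cysltr2, had its largest difference in IFNg/LPS, at 1.01, 2.29 and 0.60. Smaller differences in IFNg/LPS than in the other stimuli were also seen in Cyp4f18 (0.003), at -5.34, -3.02 and -5.37, and in Gm14325 (0.0041), at -3.20, -2.26 and -3.27. Gna12 (0.014), at 0.90, 0.14 and 0.89, and Tnfrsf10b (0.025), at 1.05, 0.51 and 1.03, showed the same order. Plekhg1 (0.0047) differed least in IL-4, at -4.53, -4.68 and -2.08. Bcl2l1 (0.032), an inhibitor of cell death, differed by 0.054, -0.49 and -0.65, close to 0 in M-CSF alone.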

How the results depend on the processing

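Higher and lower genes of the mean effect numbered 586 and 710, shift genes 191 and 207. With 3 means against 3 they were 309 and 431, and 43 and 43; fewer residual degrees of freedom are part of that construction. Without the M-CSF libraries they were 295 and 471, and 73 and 94, and without IL-4 they were 319 and 454, and 74 and 92. Libraries numbered 2 and 3 alone gave 106 and 119 shift genes, and an unadjusted p of at least 0.05 in each stimulus gave 4 and 3. Leaving out 1 library at a time gave 450 to 621 higher and 552 to 785 lower genes, and 145 to 208 and 132 to 222 shift genes. The members changed more than these totals. Of the reported 398, 219 to 305 were shift genes again with 1 library left out. This number was 55 without IL-4, 57 without M-CSF and 141 without IFNg/LPS. It was 77 with libraries numbered 2 and 3 alone and 231 with DESeq2. The fewest lower shift genes came without p110g-/- M-CSF replicate 2, and the cause was not tested. With the library number as a replicate block 713 and 855 genes were called, with 209 and 200 shift genes, of which 261 were shared with the reported 398. DESeq2 called 837 and 1040 and edgeR 618 and 742. A pseudocount of 8, no filter, a mean of at least 50, TMM or quantile scaling, no trend, correlated libraries and the fit of 6 group means kept each of the 4 counts within 1.5 times. Quantile scaling moved the higher share from 45.2% to 50.5%. No named gene reversed, and 43 of the 131 called ones stayed called in each alternative that tested them. Depth limits genes near 3 reads (values of 2.15 to 4.74), where a difference was not detectable.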

Other observations

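Further groups of genes were called over the 3 stimuli. Shares over all tested genes were 4.54% lower and 3.75% higher. Of 36 lysosome and phagocytosis genes 5 were lower and none higher, among them the protease Ctsl (-0.66 ± 0.16), the shift gene Neu1 (-0.17 ± 0.05), a sialidase, and Tfe3 (-0.10 ± 0.031). This count was 2 without WT IFNg/LPS replicate 2 or any 1 p110g-/- IFNg/LPS library, 2 or 3 in 11 of the 18 fits with 1 library left out, 0 without the IFNg/LPS libraries and 1 without IL-4. Of 32 unfolded protein and ATF4 response genes 4 were lower and 2 higher, without the M-CSF libraries 1 and none, and the 2 were 1 in 13 of the 18 fits with 1 library left out. The shift gene Asns, asparagine synthetase, stood at 470.1, 454 and 287 in WT and 326, 215 and 202 in p110g-/- in M-CSF, 456, 1031 and 1058 against 318, 440.4 and 698 in IFNg/LPS, and 463, 545 and 466 against 383, 279 and 202 in IL-4. Its genotypes overlapped in M-CSF and IFNg/LPS and were apart in IL-4, and it was 1.7-fold lower (limma adjusted p = 0.017). Ddit3 (-0.47 ± 0.096), Aars (-0.28 ± 0.073) and Sesn2 (-0.34) were lower, and the cystine carrier Slc7a11 (0.51 ± 0.12) and the chaperone Canx (0.11 ± 0.031) higher.

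Of 37 integrin, adhesion and migration genes 6 were lower and 1 higher (background 4.54% and 3.75%). The 6 were 2 without WT IL-4 replicate 2 or p110g-/- M-CSF replicate 2, 3 without WT M-CSF replicate 1, p110g-/- IFNg/LPS replicate 3 or p110g-/- IL-4 replicate 3, and 1 without the IL-4 libraries. The lower ones were the integrins Itga6 (-0.39), Itga9 (-0.75) and Itgav (-0.25), the actin regulators Cfl1 (-0.17) and Coro1a (-0.31), and the adaptor Apbb1ip (-0.29); Ezr, which ties membrane to actin, was higher (0.58 ± 0.11). Among 22 genes that respond to handling, 3 were called (13.6% against 8.29% over all genes), all shift genes: Fos (-0.71) and Nr4a1 (-1.15) lower and Jund (0.29) higher. With 1 library left out, 0 to 4 were lower and 0 to 2 higher. The summed level of the 22 was 70800 to 82700 in WT M-CSF and 74500 to 84600 in p110g-/- M-CSF, 185000 to 233000 and 178000 to 204000 in IFNg/LPS, and 114000 to 118000 and 97600 to 122000 in IL-4.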
